A study of Arabidopsis thaliana with 6 samples.

Results

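Histone H2B genes of Arabidopsis thaliana were followed gene by gene in shoots of the pvip1 pvip2 double mutant and of Col-0, the laboratory wild type. The genes were taken from a list of 10 H2B loci and matched by locus code to probe sets that the platform annotation names with that gene alone. This gave 9 of the 10 loci, each with 1 probe set, among 22746 probe sets other than controls and 13350 genes with a probe set of their own. HTB9 (AT3G45980) has no probe set named with it alone and was not analysed here. No filter on level was applied, so every matched gene was tested. The gene table has a symbol for HTB1 (AT1G07790), HTB2 (AT5G22880), HTB4 (AT5G59910) and HTB11 (AT3G46030), and AT2G28720, AT2G37470, AT3G09480, AT3G53650 and AT5G02570 are called by their locus codes.

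The study compared pvip1 pvip2 seedlings, 3 arrays, with Col-0 seedlings, 3 arrays, all grown on agar plates in long days and harvested 10 days after germination. PVIP genes, also called OBERON genes, encode PHD-finger proteins that act in forming the meristems of the plant. Mutants have only a vestigial hypocotyl, which was cut, and Col-0 roots were taken off, so both genotypes were wounded and the tissues harvested can differ. RNA came from whole samples, in which fewer cells of a type and less RNA per cell cannot be told apart.

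H2B forms a dimer with H2A, and these dimers complete the nucleosome around a core of H3 and H4. Plants carry many H2B genes. Most canonical core histone genes are transcribed mainly in S phase, when new chromatin is assembled, so their RNA is abundant in dividing tissue such as meristems and young leaves. The C-terminal tail of H2B carries a monoubiquitin mark, placed in Arabidopsis by the ligases HUB1 and HUB2 and linked to transcription.

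Values are log2 signals as deposited. The targeted gene OBE1 (AT3G07780) stood at 2.54, 2.61 and 2.53 in the mutant arrays, against 2.42, 5.08 and 5.17 in Col-0 replicates 1, 2 and 3. The low value in the array labelled Col-0 replicate 1 goes against its label, but it rests on 1 probe set. OBE2, the other targeted gene, has no probe set named with it alone. Whether the array is mislabelled was not tested. Col-0 replicate 3 stood apart in its controls. The 3' end of GAPDH lay 2.31 log2 units above the 5' end there, while it lay 0.55 to 0.91 above in the mutant arrays and 0.97 and 1.08 in the other Col-0 arrays. The same difference for an RNA added as a labelling control was 4.72 there, against 2.07 to 2.27 in the mutant arrays and 1.93 and 2.16 in the other Col-0 arrays.

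HTB1 and AT2G37470 were lower in pvip1 pvip2 shoots, and the other 7 H2B genes did not pass the test in either direction. HTB1 stood at 66.9% of its Col-0 signal (95% interval 52.0% to 85.9%) and AT2G37470 at 54.3% (37.3% to 79.0%). The test was limma's moderated test with Benjamini-Hochberg adjustment over all 22746 probe sets and a threshold of 0.05. Of all probe sets 6.51% were called lower and 6.85% higher, 13.4% in all, and the 2 of 9 H2B genes stand beside that share. Both calls lie close to the threshold and were lost when most single arrays were left out.

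HTB1 was measured at 7.21, 6.98 and 7.14 in the mutant arrays, against 7.82, 7.58 and 7.67 in Col-0 replicates 1, 2 and 3. All mutant arrays lay below all Col-0 arrays, and each genotype spread over about the same narrow range. The change was -0.58 (SE 0.16, n = 3 arrays per genotype, limma adjusted p = 0.0452). The size of the change held from -0.64 to -0.51 whichever array was left out, while the limma adjusted p went up to between 0.0623 and 0.149 in each case. With the array labelled Col-0 replicate 1 left out, HTB1 changed by -0.51 (limma adjusted p = 0.113), and with Col-0 replicate 3 left out, by -0.59 (limma adjusted p = 0.1).

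AT2G37470 gave 5.90, 5.76 and 5.58 in the mutant arrays, against 6.34, 6.42 and 7.11 in Col-0 replicates 1, 2 and 3. The genotypes again did not overlap, but Col-0 replicate 3 lay well above the other Col-0 arrays. The change was -0.88 (SE 0.24, n = 3 arrays per genotype, limma adjusted p = 0.0432). With Col-0 replicate 3 left out, AT2G37470 changed by -0.64 (limma adjusted p = 0.0982), and with the array labelled Col-0 replicate 1 left out, by -1.02 (limma adjusted p = 0.0388). Leaving out any array but the one labelled Col-0 replicate 1 took the call away.

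**Figure D1:**
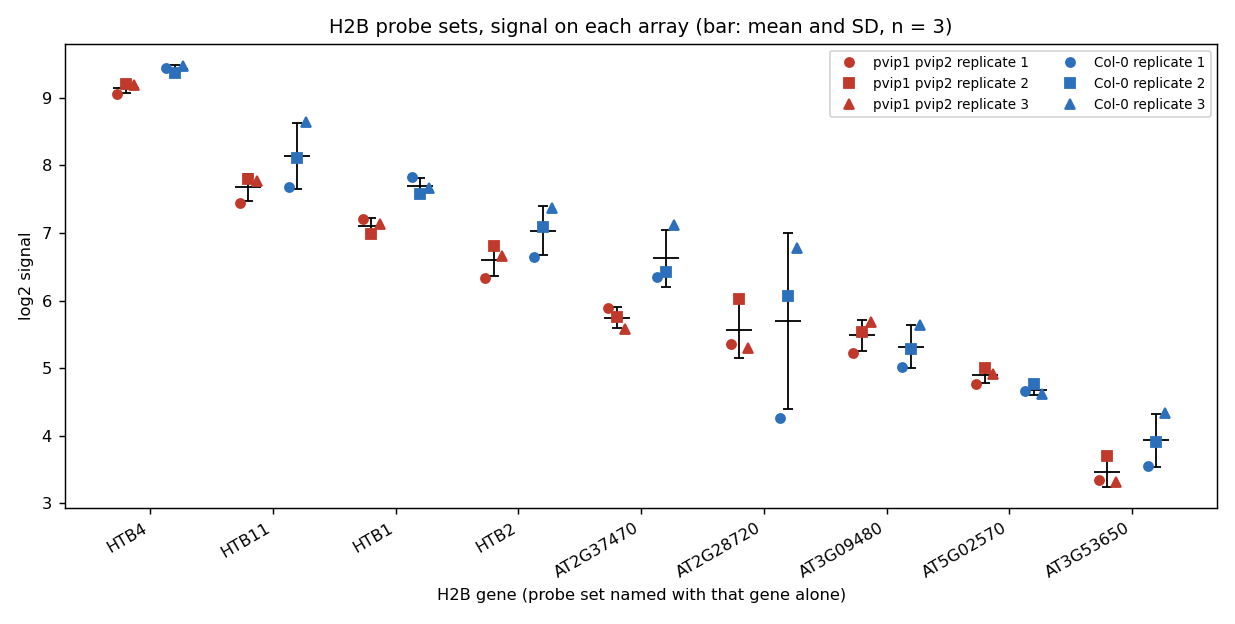
Log2 signal (vertical axis) of the 9 H2B probe sets on each array, with pvip1 pvip2 left of Col-0 for each gene, a point per array, and a bar for the mean and SD of 3 arrays. HTB1, HTB4 and AT2G37470 have every mutant point below every Col-0 point, AT5G02570 has every mutant point above, and the Col-0 points of AT2G28720 spread over 2.52 log2 units.

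The brightest H2B probe set, that of HTB4, also lay lower in every mutant array. It gave 9.05, 9.20 and 9.19 in the mutant, against 9.44, 9.37 and 9.48 in Col-0. The change of -0.28 (SE 0.13) was small and was not called (limma adjusted p = 0.21), and its interval ran from -0.58 to 0.02. HTB1, HTB4 and AT2G37470 were the 3 of 9 genes with all mutant arrays below all Col-0 arrays, a pattern shown by 18.8% of all probe sets.

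HTB11, HTB2 and AT3G53650 had negative changes that were not called. HTB11 gave 7.45, 7.80 and 7.77 in the mutant arrays, against 7.67, 8.10 and 8.64 in Col-0. HTB2 gave 6.34, 6.81 and 6.66 in the mutant arrays, against 6.64, 7.09 and 7.36 in Col-0. In both genes the array labelled Col-0 replicate 1 lay within the mutant range and Col-0 replicate 3 was the highest of all. The changes were -0.46 (95% interval -1.03 to 0.10) for HTB11 and -0.43 (-0.95 to 0.10) for HTB2. With Col-0 replicate 3 left out they were -0.21 for HTB11 and -0.26 for HTB2, and with the array labelled Col-0 replicate 1 left out, -0.70 for HTB11 and -0.62 for HTB2. AT3G53650, the dimmest H2B probe set, gave 3.35, 3.70 and 3.32 in the mutant arrays, against 3.55, 3.91 and 4.34 in Col-0. Its mean lay under 3.81, the 40th percentile of all probe sets, and its change was -0.48 (-0.98 to 0.03), or -0.27 with Col-0 replicate 3 left out and -0.67 with the array labelled Col-0 replicate 1 left out. Near the bottom of the scale the size of a change depends on how background was handled.

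AT3G09480 and AT5G02570 were the 2 genes with a positive change. AT5G02570 gave 4.77, 5.01 and 4.92 in the mutant arrays, against 4.66, 4.76 and 4.62 in Col-0. It was the 1 of 9 genes with all mutant arrays above all Col-0 arrays, a pattern shown by 13.4% of all probe sets, and by a small margin. The change was 0.22 (95% interval -0.18 to 0.61, limma adjusted p = 0.481). AT3G09480 gave 5.23, 5.54 and 5.68 in the mutant arrays, against 5.01, 5.28 and 5.64 in Col-0, and the genotypes overlapped. Its change was 0.17 (-0.34 to 0.69, limma adjusted p = 0.693), or 0.34 with Col-0 replicate 3 left out and 0.02 with the array labelled Col-0 replicate 1 left out.

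AT2G28720 was the least certain of the family. It gave 5.36, 6.02 and 5.29 in the mutant arrays, against 4.26, 6.06 and 6.78 in Col-0 replicates 1, 2 and 3, so that the wild-type arrays held both its lowest and its highest value. Its change of -0.14 had an interval from -1.43 to 1.14, which leaves a linear signal between 37.2% and 221% of Col-0. AT2G28720 stood at -0.86 when the array labelled Col-0 replicate 1 was left out, and at 0.40 when Col-0 replicate 3 was. These data therefore do not place AT2G28720 among genes of constant level.

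**Figure D2:**
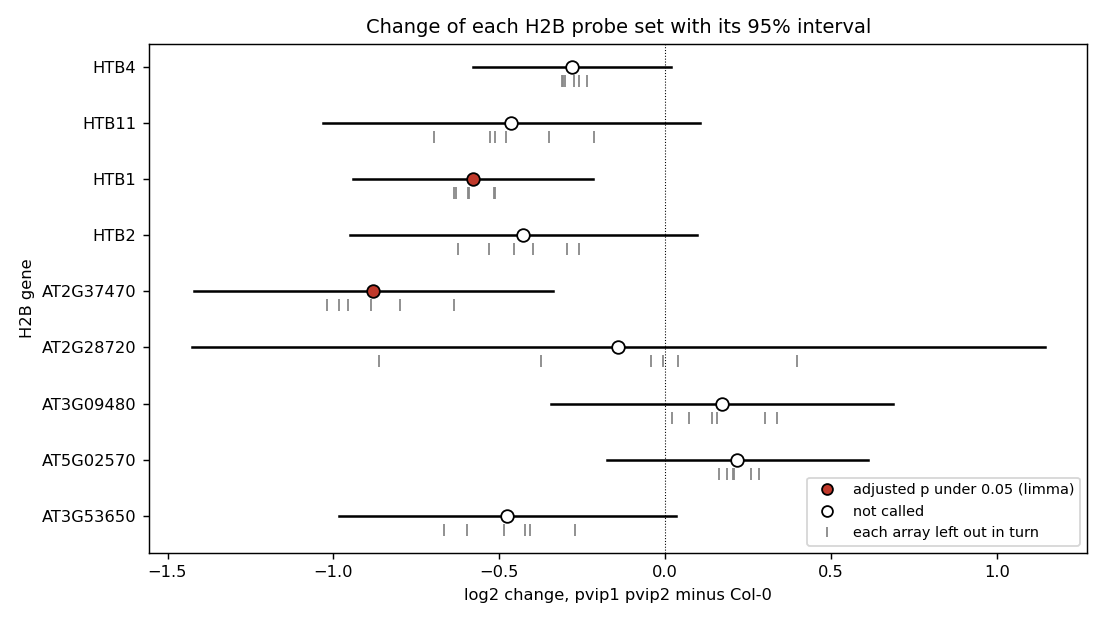
Log2 change of each H2B gene, pvip1 pvip2 minus Col-0 (horizontal axis), with its 95% interval from limma and, as grey ticks, the change with each array left out in turn. HTB1 and AT2G37470, filled, have intervals wholly below 0, and the intervals of the 7 open points include 0.

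Across the family 7 of 9 changes were negative, with a median of -0.43. Over all probe sets 58.1% of changes were negative and the median was -0.05. The intervals of the 7 genes that were not called are wide: those of HTB11, HTB2, AT2G28720 and AT3G53650 include -0.58, the change of HTB1. The interval of HTB4 ended at -0.579, barely short of the HTB1 change of -0.580, which has an SE of 0.16. Absence of a call does not show that the 7 genes held their level. Within Col-0, 7 of the 9 genes were highest in replicate 3, which was the highest Col-0 array for 32.1% of all probe sets, and 6 of the 9 were lowest in the array labelled Col-0 replicate 1, against 37.4%. The part of RNA quality in these values was not tested.

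Arrays of the same replicate number deviated together across probe sets in pairs 1 and 2 (r = 0.539 and 0.311) and only weakly in pair 3 (r = 0.121). No label says that the number marks a shared batch. The genes were also read pair by pair, a reading chosen after seeing the data. HTB1 differed by -0.61, -0.60 and -0.53 in pairs 1, 2 and 3, and AT2G37470 by -0.45, -0.66 and -1.53. HTB4, HTB11, HTB2 and AT3G53650 were lower in the mutant array of each pair as well, which makes 6 of 9 genes, against 30.8% of all probe sets. For HTB11 the differences were -0.23, -0.30 and -0.86. For HTB2 they were -0.30, -0.28 and -0.71. For AT3G53650 they were -0.20, -0.21 and -1.02. In these 3 genes, and in AT2G37470, the pair that holds Col-0 replicate 3 differed most. AT3G09480 and AT5G02570 were higher in the mutant array of each pair, as 21.5% of all probe sets were. AT2G28720 went both ways, at 1.104, -0.04 and -1.49.

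Summed over the 9 probe sets, the linear H2B signal was 1111, 1262 and 1223 in the mutant arrays, against 1397, 1497 and 1821 in Col-0 replicates 1, 2 and 3. The mean sum was 1199 ± 78.2 in pvip1 pvip2 and 1572 ± 222 in Col-0 (SD, n = 3 each), a ratio of 0.763. The ratio was 0.722 with the array labelled Col-0 replicate 1 left out and 0.828 with Col-0 replicate 3 left out. Probe sets differ in brightness per transcript, so shares of this sum describe signal and not numbers of transcripts. HTB4 made up 47.4% ± 0.65 of it in the mutant and 44.4% ± 5.41 in Col-0 (SD, n = 3 each). HTB11 made up 17.1% ± 1.21 in the mutant and 18.3% ± 3.62 in Col-0, and HTB2 8.16% ± 0.82 in the mutant and 8.43% ± 1.12 in Col-0. The genotype differences in these shares, in percentage points, rest on single Col-0 arrays. For HTB4 the difference was 3.03, or 0.384 with Col-0 replicate 3 left out and 5.79 with the array labelled Col-0 replicate 1 left out. For HTB11 it was -1.18, and it turned to 0.609 with Col-0 replicate 3 left out and stood at -3.01 with the array labelled Col-0 replicate 1 left out. For HTB2 it was -0.27, or 0.035 and -0.92 with the same arrays left out in that order.

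Of the called genes, AT2G37470 took a smaller share of the H2B signal, while the share of HTB1 overlapped between the genotypes. Both genes were picked by their calls on the same values, so their shares are a description and no further evidence. AT2G37470 held 5.36%, 4.29% and 3.92% in the mutant arrays, against 5.81%, 5.72% and 7.59% in Col-0. HTB1 held 13.3%, 9.99% and 11.5% in the mutant arrays, against 16.2%, 12.8% and 11.2% in Col-0, the last being within the mutant range. The HTB1 difference of -1.76 percentage points was -0.35 with the array labelled Col-0 replicate 1 left out and -2.87 with Col-0 replicate 3 left out. For AT2G37470 the difference was -1.85, or -2.13 and -1.25 with the same arrays left out in that order. AT3G09480 and AT5G02570, with no call of their own, took larger shares in every mutant array. The sum stood at 0.763 of its Col-0 mean in the mutant, and a gene whose signal holds gains share when the sum falls. The larger shares therefore do not show a rise of either gene. AT3G09480 held 3.37%, 3.69% and 4.20% in the mutant arrays, against 2.31%, 2.60% and 2.75% in Col-0. AT5G02570 held 2.45%, 2.55% and 2.47% in the mutant arrays, against 1.81%, 1.82% and 1.35% in Col-0. The shares of AT2G37470, AT3G09480 and AT5G02570 each gave p = 0.1 in a two-sided exact permutation test over the 6 arrays, the smallest that 3 against 3 allows, and 0.3 after Benjamini-Hochberg adjustment over the 9 genes. How often shares separate in this way in other sets of genes was not measured. AT2G28720 made up 4.02% ± 1.01 in the mutant and 3.96% ± 2.37 in Col-0, and AT3G53650 0.922% ± 0.106 in the mutant and 0.985% ± 0.138 in Col-0 (SD, n = 3 each).

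**Figure D3:**
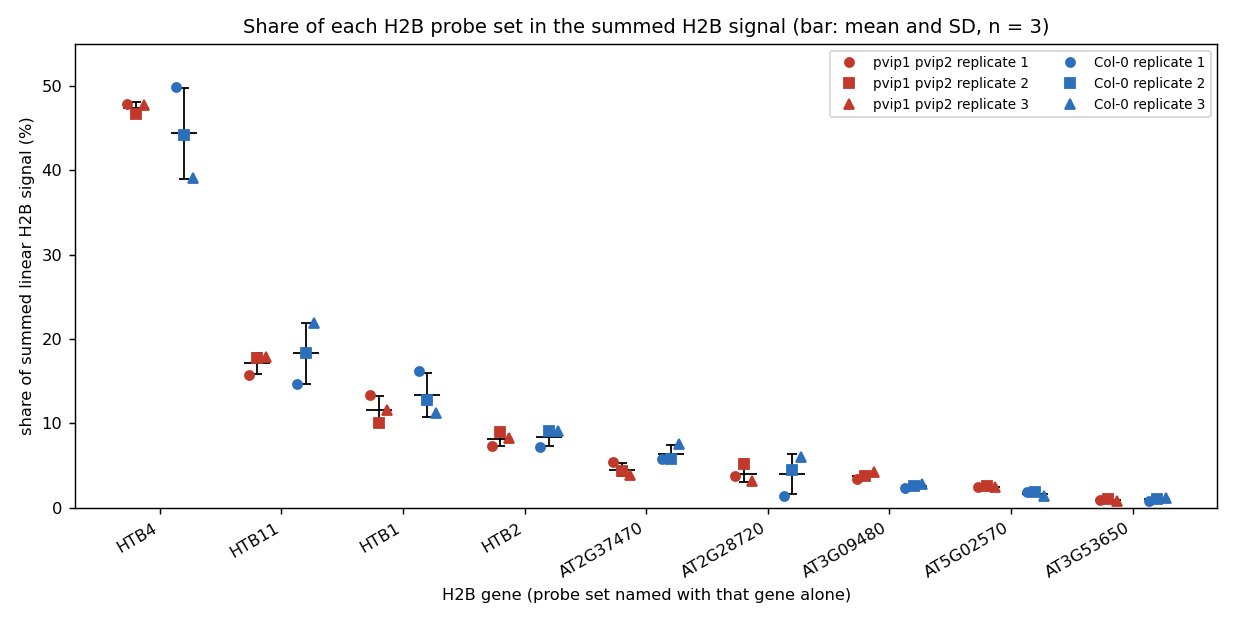
Share of each H2B probe set in the summed linear H2B signal of its array, in percent (vertical axis, from 0), with pvip1 pvip2 left of Col-0, a point per array and a bar for the mean and SD of 3 arrays. AT2G37470 has a smaller share, and AT3G09480 and AT5G02570 larger shares, in every mutant array than in every Col-0 array. The sum itself is lower in every mutant array.

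Unequal change of paralogues was then examined as the log2 difference of a pair of H2B genes within each array. A constant factor of brightness for each probe set cancels between genotypes there, while background added to a signal does not. The part of background in these differences was not tested. The difference AT2G37470 minus AT5G02570 was 1.13, 0.75 and 0.66 in the mutant arrays, against 1.69, 1.66 and 2.49 in Col-0, so it was smaller in the mutant by -1.10. HTB1 minus AT5G02570 was 2.44, 1.97 and 2.22 in the mutant arrays, against 3.17, 2.81 and 3.05 in Col-0, a change of -0.80. HTB1 minus AT3G09480 changed by -0.75 and AT2G37470 minus AT3G09480 by -1.05, also without overlap between the genotypes. In all 4 of these pairs the difference was smaller in every mutant array than in every Col-0 array.

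Against HTB4 the separation was smaller. HTB4 minus HTB1 was 1.85, 2.22 and 2.05 in the mutant arrays, against 1.62, 1.79 and 1.81 in Col-0, a change of 0.30, and HTB4 minus AT2G37470 changed by 0.60, both without overlap. The differences of HTB1 and AT2G37470 from HTB11, HTB2, AT2G28720 and AT3G53650 overlapped between the genotypes, as did the difference of HTB1 from AT2G37470. For AT2G37470 the count depends on single arrays. Of its 8 pairs 3 did not overlap, but 7 did not with pvip1 pvip2 replicate 1 left out and 6 with Col-0 replicate 2 left out. HTB1 had 3 or 4 such pairs whichever array was left out. Leaving out an array can only keep or raise such a count, so these counts do not show stability. The background share given below is for all 6 arrays. Between same-numbered arrays, a reading chosen after seeing the data, 7 of the 8 differences of AT2G37470 changed one way in all 3 pairs. They include those from HTB11, HTB2, AT2G28720 and AT3G53650, which overlapped between the genotypes. The difference from AT2G28720 changed by only -0.04 in pair 3. These counts do not establish that AT2G37470 changed unequally from those 4 genes. HTB1 had 3 of 8 in that reading. Of all 36 H2B pairs 18 changed one way in all 3, against 57.3% of all pairs of probe sets. Of all 36 pairs 14 did not overlap, and 12 of those 14 hold AT3G09480 or AT5G02570. Over all pairs of probe sets on the array 37.1% did not overlap, so the count of H2B pairs is near the background. The smallest exact permutation p of a pair was 0.1, or 0.257 after adjustment over the 36 pairs, and this design cannot go below 0.1 for a single pair. Because HTB1 and AT2G37470 were picked by their calls, their pair differences are a description.

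**Figure D4:**
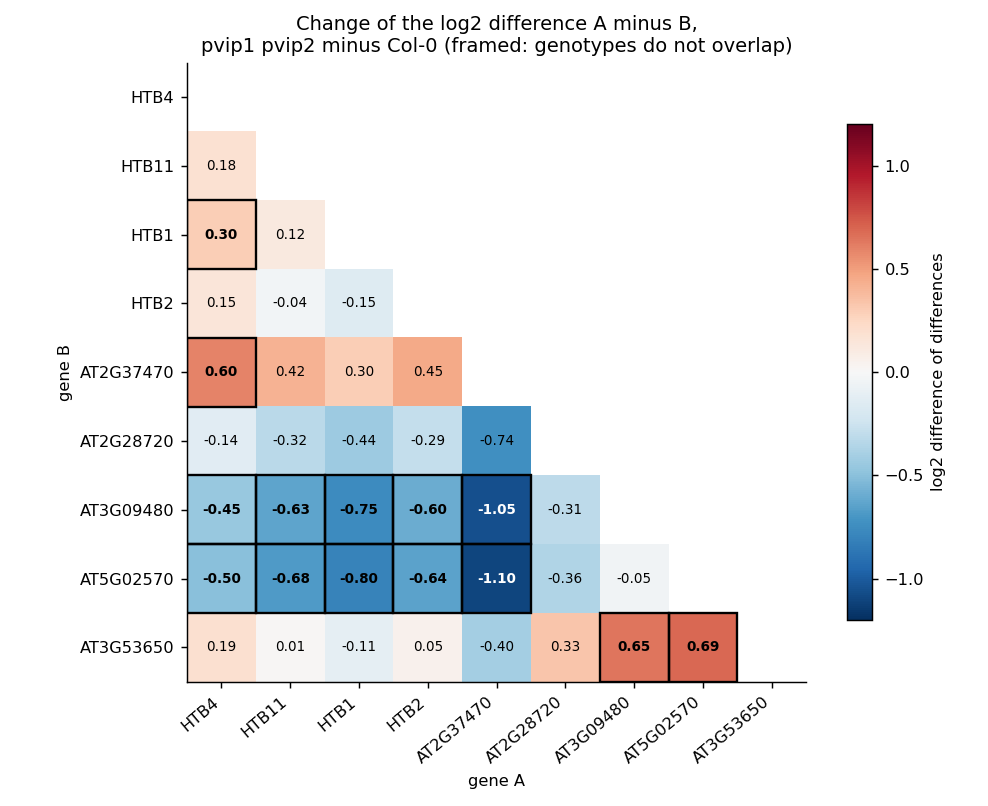
Change of the within-array log2 difference between gene A (columns) and gene B (rows), pvip1 pvip2 minus Col-0, for the 36 pairs of H2B genes. Framed cells mark pairs whose differences do not overlap between the genotypes, and they fill 12 of the 15 cells that hold AT3G09480 or AT5G02570.

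Fluidics station, the only batch in the setting files that holds both genotypes, split the arrays into 2 of each genotype on the first station and 1 of each on the second. HTB1 differed by -0.61 between the genotypes on the first station and by -0.53 on the second. AT2G37470 differed by -0.56 on the first and by -1.53 on the second, which held Col-0 replicate 3. On the first station alone the limma adjusted p was 0.201 for HTB1 and 0.238 for AT2G37470. AT2G28720 differed by 0.53 on the first station and by -1.49 on the second, which turns its direction. HTB4 differed by -0.28 on the first and by -0.29 on the second. The mutant arrays ran on even-numbered and the Col-0 arrays on odd-numbered modules of the stations, so module and genotype cannot be told apart.

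Several H2B loci lie beside other histone genes in the gene order of TAIR10.1. AT5G02570 is the direct neighbour of HTA12, an H2A gene, and 1 protein-coding gene separates AT2G28720 from HIS4, an H4 gene. Between HTB1 and AT1G07820, a listed core histone gene, lie 2 protein-coding genes. Between HTB4 and HTA6, another H2A gene, lie 4 protein-coding genes, and 4 lie between HTB11 and HTB9. None of HTA12, HIS4, AT1G07820, HTA6 and HTB9 has a probe set named with it alone, so shared change of such neighbours was not analysed here.

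Other genes of chromatin assembly and division were taken from lists written from background knowledge. Of 3 linker histone loci, none was called, and all 3 had unadjusted p values under 0.05, as did 27.1% of all probe sets. HIS1-3 gave 4.01, 4.61 and 3.91 in the mutant arrays, against 4.49, 4.88 and 5.81 in Col-0 (change -0.88, limma adjusted p = 0.143). With Col-0 replicate 3 left out HIS1-3 changed by -0.51 (limma adjusted p = 0.309), and with the array labelled Col-0 replicate 1 left out, by -1.17 (limma adjusted p = 0.064). AT1G06760 gave 8.42, 8.67 and 8.69 in the mutant arrays, against 9.03, 9.13 and 9.01 in Col-0 (change -0.46, limma adjusted p = 0.072, but 0.0384 after quantile normalization and 0.0469 with the replicate block). AT2G30620 stood at -0.36 (limma adjusted p = 0.13). HIS1-3 shared with AT2G37470 a Col-0 replicate 3 well above the other arrays.

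Neither of the named histone chaperones was called, although both had every mutant array below every Col-0 array, as 18.8% of all probe sets did. ASF1B, which hands H3 and H4 to the chromatin assembly machinery, stood at -0.40 (95% interval -0.81 to 0.005), and SGA2, also named ASF1A, at -0.25. In the list of H2B monoubiquitination, UBP26 and UBP22, deubiquitinases of H2B, stood at -0.04 and -0.24 and AT5G58575 at -0.31, with none of the 3 called. The 4 named genes of other core histones all had means under the 40th percentile, and MGH3, HTR12 and AT1G13370 stood at -0.21, -0.20 and -0.01. With 4 of 34 listed loci named, and those so dim, these values do not show how the other core histones changed.

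Of the named genes of DNA replication and mitosis, 4 fell and 1 was not called, beside the 6.51% of all probe sets called lower. PRL, the MCM7 subunit of the replication helicase, changed by -0.88 (SE 0.21, limma adjusted p = 0.025), while ICU2, a catalytic subunit of DNA polymerase alpha, stood at 0.01. The Aurora kinases AUR1, AUR2 and AUR3, which act in mitosis, all fell, with changes of -1.08, -1.18 and -0.73 (limma adjusted p = 0.0369, 0.0266 and 0.0256). AUR3 gave 3.07, 3.33 and 3.03 in the mutant arrays, against 3.91, 3.61 and 4.11 in Col-0, near the bottom of the scale. The calls of AUR1, AUR2 and PRL held when the array labelled Col-0 replicate 1 was left out (limma adjusted p = 0.0394, 0.0435 and 0.0381) and were lost when Col-0 replicate 3 was (limma adjusted p = 0.108, 0.0879 and 0.0795). That of AUR3 was lost in both cases (limma adjusted p = 0.0538 and 0.0747). With Col-0 replicate 2 left out, AUR1, AUR2 and PRL lost their calls (limma adjusted p = 0.122, 0.0677 and 0.0889). With pvip1 pvip2 replicate 3 left out, AUR1 changed by -0.79 and AUR2 by -0.88. Neither was called (limma adjusted p = 0.0876 and 0.0627), nor was AUR3 (limma adjusted p = 0.0988). Without pvip1 pvip2 replicate 1, PRL and AUR3 lost their calls, and without pvip1 pvip2 replicate 2, PRL and AUR2 did. The counts of called genes rest on few genes. Of listed loci, 4 of 34 of other core histones have a probe set named with them alone. For DNA replication it was 2 of 22 and for mitosis 3 of 14.

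Among 7315 probe sets named with 1 gene outside the family and above the 40th percentile, the patterns most like that of HTB1 over the 6 arrays were those of AT5G59250, PRA1.G2 and AT3G63390. Likeness was the root mean square difference of the log2 values after each gene was centred on its own mean, and it was 0.05, 0.06 and 0.06. Within the family, where the pool was 8 genes, the nearest to HTB1 was HTB4, at 0.19, and AT2G37470 followed at 0.32. The pools differ in size, so the smallest distances inside and outside the family cannot be set against each other. For AT2G37470 the most alike were AT3G53190, AT5G19670 and AT2G38780, at 0.10, 0.11 and 0.12, and within the family AT3G53650, at 0.26. AT3G53190 gave 5.88, 6.02 and 5.76 in the mutant arrays, against 6.59, 6.54 and 7.16 in Col-0, with the same high Col-0 replicate 3 as AT2G37470.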

How the data were processed

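RNA of 6 samples was measured on single-colour Affymetrix ATH1 arrays. The deposited table holds log2 values, a base read from their range, and the authors' steps of summarising, background correction and normalizing were not stated in the sources used here. The submitters' processing notes name GCOS. The other deposited files are scanner and fluidics setting files, from which station and module were read. Precision is limited by the few arrays.

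The comparison used lmFit and eBayes with a trend and no level filter (limma 3.58.1, R 4.3.3) over 22746 probe sets after removal of 64 controls. Shares and pairs were tested with exact permutation tests in scipy 1.17.1. Names came from the platform annotation and the TAIR10.1 gene table. Probe sets of near-identical paralogues may share signal, which was not tested. The H2B members and the gene lists were chosen with earlier results of these data known. Named genes are all members, called list members, up to 3 others per list by signal, and the 3 most alike. Same-numbered arrays deviated together in pairs 1 and 2 and only weakly in pair 3 (r = 0.539, 0.311 and 0.121 across probe sets). The r of pair 3 is below that of pvip1 pvip2 replicate 2 with Col-0 replicate 3 (r = 0.228). Pairing by number is therefore not established for pair 3. The comparison, the permutation tests and the overlaps do not use the pairs. The replicate block is an alternative. The labels call the samples biological replicates. Changes are pvip1 pvip2 minus Col-0.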

Additional observations from a re-analysis of the deposited data

How the results depend on the processing

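The call of HTB1 was lost under 9 of its 16 alternatives and that of AT2G37470 under 8 of 16, with no change of direction, at changes of -0.64 to -0.42 and of -1.02 to -0.48 (limma adjusted p = 0.0237 to 0.201 and 0.0298 to 0.238). The 2 called H2B genes became 1 with array medians set equal (AT2G37470), 1 with 64 added to the linear signal (HTB1), and 0 with the station as a block or on the first station alone. With single arrays left out 0 to 1 were called. Of the other listed genes, 4 were called in the main comparison, 1 with a filter at the 60th percentile, which leaves fewer of them to test, 0 on the first station alone, and 0 to 3 with single arrays left out. Of all probe sets 3040 were called, 1826 of the fewer ones tested with a filter at the 60th percentile, 946 with the 4 arrays of the first station alone, and 1773 to 2800 with single arrays left out. The replicate block gave 4369 calls, and the H2B calls did not change (HTB1 -0.58, limma adjusted p = 0.0237, and AT2G37470 -0.88, limma adjusted p = 0.0328). The block also called AT1G06760 and OBE1 (limma adjusted p = 0.0469 and 0.0482).

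AT3G53650 and AUR3 lie below both level filters and were not tested with them. None of the results that turned round was called. AT2G28720 stood at 0.53 on the first station alone and between -0.86 and 0.40 with single arrays left out. AT1G13370 stood at 0.025 with quantile normalization and between -0.073 and 0.053 with single arrays left out, UBP26 between -0.17 and 0.19, and ICU2 at -0.0022 with array medians set equal, at -0.080 on the first station alone and between -0.15 and 0.26 with single arrays left out. The difference in share, in percentage points, was for HTB11 0.22 on the first station alone and -3.01 to 0.61 with single arrays left out, for HTB2 -0.92 to 0.16, for AT2G28720 -1.23 to 1.104, and for AT3G53650 0.51 with 64 added, 0.053 on the first station alone and -0.14 to 0.00093 with single arrays left out. The cause was not tested. Shares did not overlap for 3 genes, and for 3 to 6 with single arrays left out, where leaving out the array labelled Col-0 replicate 1 gave the 6. Counts of pairs without overlap ran from 14 to 20 over their alternatives. Both counts can only stay or rise when arrays are left out, so they do not show stability there. Between same-numbered arrays, with the replicate number as block, 18 pairs changed one way. That reading and the station split for shares and pairs were chosen after seeing the data. Only 3 arrays per genotype were measured, which limits every value.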
